A study of Homo sapiens with 30 samples.

Results

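The cytosolic ribosomal protein genes were described in SW1783, an established human astrocytoma line, after 24 h with ethanol extracts of traditional herbal decoctions. Members were all protein-coding genes of GENCODE v29 whose symbol is RPL or RPS followed by a digit, together with RPSA, RPLP0, RPLP1 and RPLP2. RPS6K kinases and hyphenated names were left out. The rule took 88 genes of the 60675 entries in the table, 53 named for the large and 35 for the small subunit, and used no measured value. RPS19BP1 meets the rule by its symbol but encodes a protein that binds RPS19 and is not a ribosome component. Of the 88 members, 86 passed the filter on low counts in the libraries of Soshiho-tang, Yijin-tang and vehicle. The other 2, RPL10L and RPS4Y2, were at or near 0 in all 30 libraries, and 85 members passed in the libraries of Okbyeongpung-san and vehicle.

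Soshiho-tang and Yijin-tang each had 3 libraries at 500, 100 and 20 µg/mL. Okbyeongpung-san had 2 libraries per concentration, 1 from batch D and 1 from batch E in the titles, and Soyo-san had 1 per concentration, from batch D. The vehicle was DMSO (0.1% in the sample labels and 2% in the series text, a difference that could not be settled) with 3 libraries, all of batch E. Library names put the vehicle in one set, Soshiho-tang and Yijin-tang in another, and Okbyeongpung-san and Soyo-san in one more, so library set and extract cannot be told apart in any contrast with vehicle. The labels do not say whether a group's libraries are separate cultures, so p-values measure only how far its libraries differ, which may be technical variation. Total estimated counts lay between 23.9 and 33.1 M per library. Of 7 astrocyte and glial markers, SOX9 (52.6 to 92.9 CPM, counts scaled to a common library size) and SLC1A3 (18.1 to 35.1 CPM) were expressed in every library, while GFAP stayed at or below 0.205, S100B at or below 0.252, ALDH1L1 at or below 0.097 and AQP4 at or below 0.07 CPM. Vimentin (VIM), which many cell types express, ranged from 3754 to 5589 CPM.

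The cytosolic ribosome is built from a small subunit, which decodes the mRNA, and a large subunit, which joins the amino acids. Most of their proteins are needed in equal numbers, and most of their mRNAs begin with a run of pyrimidines, the 5′ TOP element, through which translation of the whole family is controlled downstream of mTOR. Many members have close paralogs and a large number of processed pseudogenes, which makes short reads from them hard to assign.

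The TOP element lies at the transcription start, so the start windows of members whose levels are described further on are shown, with the pyrimidine run in capitals. A run was counted where at least 5 bases in a row were C or T, beginning with C within 10 bases of the annotated start. Each window covers 15 bases before and 15 from the start, on the gene's strand, taken from RefSeq promoters (GRCh38.p14).
RPS27, chr1:153990747-153990776, plus strand: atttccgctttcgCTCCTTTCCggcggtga
RPS23, chr5:82278340-82278369, minus strand: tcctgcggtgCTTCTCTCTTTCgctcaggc
RPL22, chr1:6199581-6199610, minus strand: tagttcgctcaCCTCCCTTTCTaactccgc
RPS6, chr9:19380222-19380251, minus strand: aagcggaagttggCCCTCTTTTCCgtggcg
RPLP1, chr15:69452803-69452832, plus strand: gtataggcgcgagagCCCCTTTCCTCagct
RPS12, chr6:132814554-132814583, plus strand: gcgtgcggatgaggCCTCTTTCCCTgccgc
RPL7A, chr9:133348203-133348232, plus strand: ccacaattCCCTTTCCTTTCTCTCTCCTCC
RPS27L, chr15:63157463-63157492, minus strand: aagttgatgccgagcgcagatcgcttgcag
RPS29, chr14:49598696-49598725, minus strand: ccccgagcgcgcagctggcagcggtggttg

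A promoter entry was found for 70 of the 88 members, and 58 of these (82.9%) held such a run, against 33.3% of 27305 RefSeq promoters. The windows of members that were higher and of members that were lower than vehicle both held runs, as those of RPS23 and RPLP1 show. RPS27L and RPS29 had none in their windows. Further motifs were searched on both strands in the promoter stretch before the annotated start, and not in the bases from the start onward. There CCGGAAG stood in 28.6% of member promoters and 8.8% of all, CCGCCC in 52.9% and 42.3%, TATAAA in 10% and 11.1%, and AAGATGGC in 1.4% of both.

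Sequence identity limits how far reads of paralogs can be separated. Over the whole coding sequence, RPL39 and RPL39L were 94.8% identical with a longest identical run of 44 bases, RPL36A and RPL36AL 89.9% with 60 bases, and RPS27 and RPS27L 77.8% with 20 bases, against reads of 100 bases. The first 90 coding bases of GENCODE v29 transcripts are shown for a close and a more distant pair, with differing bases in capitals. They differ at 4 positions between RPL39 and RPL39L and at 24 between RPS27 and RPS27L.
RPL39: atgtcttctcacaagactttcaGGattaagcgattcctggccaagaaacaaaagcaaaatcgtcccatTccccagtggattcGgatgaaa
RPL39L: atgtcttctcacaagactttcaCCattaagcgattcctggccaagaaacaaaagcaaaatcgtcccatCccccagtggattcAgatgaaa
RPS27: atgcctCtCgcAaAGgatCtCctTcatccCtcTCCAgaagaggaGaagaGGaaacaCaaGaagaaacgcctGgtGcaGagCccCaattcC
RPS27L: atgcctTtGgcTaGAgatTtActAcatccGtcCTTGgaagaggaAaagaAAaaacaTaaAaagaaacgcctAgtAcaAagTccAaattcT

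The members together took between 2.53% and 4.00% of all counts in a library. In vehicle, large subunit genes held 2.01%, 1.86% and 1.75% of counts and small subunit genes 1.32%, 1.21% and 1.14% in replicates 1, 2 and 3. With Soshiho-tang at 500 µg/mL the shares were 2.10%, 2.11% and 2.16% for large and 1.42%, 1.43% and 1.46% for small subunit genes, above every vehicle library. Yijin-tang at 500 µg/mL held 2.11%, 2.01% and 1.95% in large subunit genes and overlapped with vehicle. At its lower concentrations every Yijin-tang library was above every vehicle library for both subunits. Large subunit genes held 2.09%, 2.02% and 2.28% there at 20 µg/mL, and 2.39%, 2.02% and 2.12% at 100 µg/mL. The lowest shares were those of the Okbyeongpung-san libraries of batch E at 100 µg/mL, with 1.53% and 1.00%, and the highest those of Yijin-tang replicate 1 at 100 µg/mL, with 2.39% and 1.60%. The ratio of large to small subunit counts stayed between 1.40 and 1.54 in all libraries. It was 1.519, 1.538 and 1.541 in vehicle and 1.482, 1.481 and 1.482 with Soshiho-tang at 500 µg/mL. With Yijin-tang at 500 µg/mL it was 1.471, 1.458 and 1.510, so both groups lay below every vehicle library. The same held for every library of both extracts at 20 and 100 µg/mL and for the Soyo-san libraries. The closest was replicate 3 of Soshiho-tang at 100 µg/mL, at 1.5183 beside 1.5185 in vehicle replicate 1. The lowest ratio was that of the batch E library of Okbyeongpung-san at 500 µg/mL. Mitochondrially encoded genes took 10.47% to 10.7% of the counts in vehicle and 6.93% to 7.79% with Soshiho-tang at 500 µg/mL, which bears on every share of the total. The vehicle and extract libraries also differ in library set. With mitochondrial genes left out of the total, the mean difference of Soshiho-tang at 500 µg/mL from vehicle was 0.194 percentage points for large subunit genes, against 0.248 with them.

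**Figure D1:**
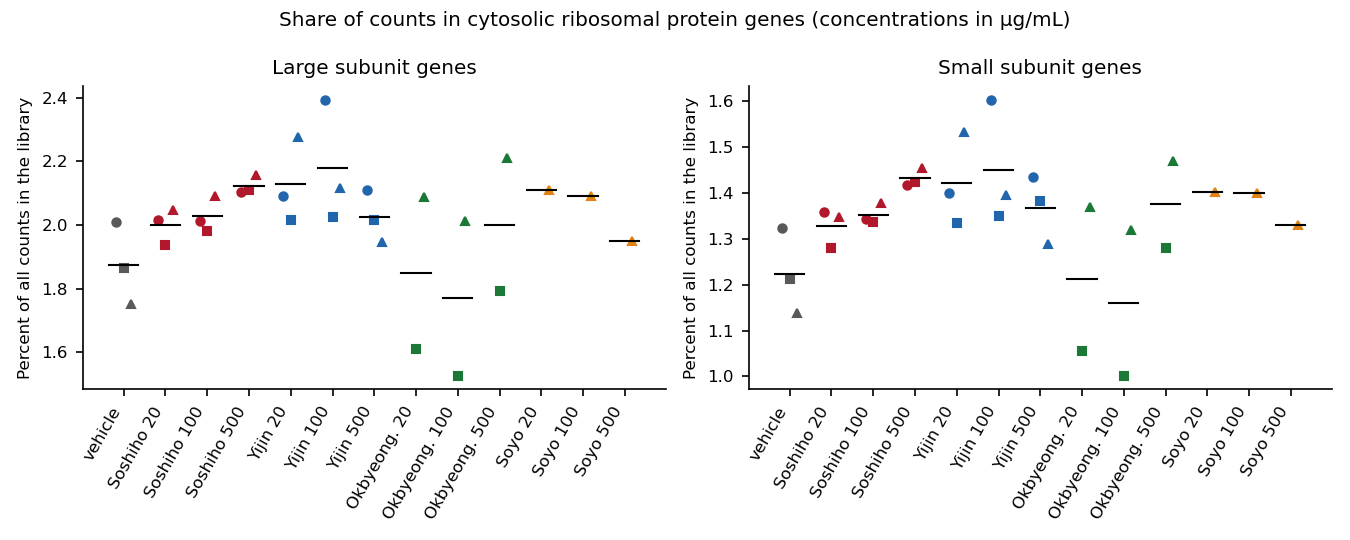
Share of all counts (percent, y axis) in large subunit genes (left) and small subunit genes (right), by group with concentrations in µg/mL (x axis). Each symbol is a library (circle, square and triangle for replicates 1, 2 and 3) and each bar the group mean; in both panels the Okbyeongpung-san squares (batch E) lie below the triangles (batch D), and the symbols of Soshiho-tang at 500 µg/mL lie close together.

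The members' mRNAs differed widely in level. Per kb of coding sequence, averaged over all 30 libraries, RPL41, which encodes the shortest ribosomal protein, stood highest at 5557 CPM per kb, followed by RPS2, a small subunit protein near the mRNA entry, at 2021 and RPL39, which lines the peptide exit tunnel, at 1761. RPL41 has only 75 coding bases, so its level on this scale depends strongly on the length used. Among members above 1 CPM the lowest were the paralogs RPL22L1 at 40.4, RPL26L1 at 45.8 and RPL39L at 57 CPM per kb. RPL3L, a form of RPL3 known from muscle, was at 0.19 CPM per kb.

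Against vehicle, some members rose and others fell. Soshiho-tang at 500 µg/mL gave 27 members higher and 5 lower (32 of 86 called, 37.2%), where 43.9% of all 16872 genes tested were called, 22.8% higher and 21.1% lower. A call is an adjusted p under 0.05 in edgeR's quasi-likelihood fit, with the Benjamini-Hochberg method applied over all genes. Yijin-tang at 500 µg/mL gave 19 higher and 12 lower, beside 31.3% of all genes (16% higher and 15.2% lower). Both extracts were set against the same 3 vehicle libraries, so the values of one are not independent of those of the other. The share of members called was below that of all genes with Soshiho-tang and near it with Yijin-tang. The members' median log2 fold change was 0.08 with Soshiho-tang and 0.05 with Yijin-tang, beside 0.01 over all genes in both comparisons. Large and small subunit genes had medians of 0.06 and 0.08 with Soshiho-tang and of 0.05 and 0.05 with Yijin-tang. How the calls were split between higher and lower depended on the scaling. With library totals in place of TMM factors, which put the median of all genes at 0.12 with Soshiho-tang, 41 members were higher and 1 lower with Soshiho-tang and 29 and 5 with Yijin-tang. With offsets for transcript length the counts were 27 and 14, and 20 and 23. With offsets for exonic length they were 17 and 18 with Yijin-tang. Shares of all genes under these other settings are not given here. These counts therefore describe how calls depend on the setting, and do not set the members apart from other genes.

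RPS27, a zinc-binding protein of the small subunit, was at 242, 226 and 199 CPM in vehicle and at 353, 371 and 368 CPM in replicates 1, 2 and 3 of Soshiho-tang at 500 µg/mL. The groups did not overlap, and the log2 fold change was 0.71 ± 0.08 SE (edgeR adjusted p = 3.4e-07). With Yijin-tang at 500 µg/mL RPS27 was at 353, 315 and 312 CPM, also above each vehicle library (0.55 ± 0.08, edgeR adjusted p = 2.61e-05).
RPL37 (chr5:40825262-40835335, minus strand, GRCh38), a zinc-finger protein of the large subunit, was at 312, 300 and 293 CPM in vehicle and at 466, 490 and 517 CPM with Soshiho-tang at 500 µg/mL (0.70 ± 0.11, edgeR adjusted p = 2.14e-05). With Yijin-tang it was at 438, 389 and 522 CPM (0.58 ± 0.11).
RPL22, a large subunit protein that binds RNA, was at 228, 219 and 209 CPM in vehicle and at 303, 316 and 338 CPM with Soshiho-tang (0.54 ± 0.06, edgeR adjusted p = 1.34e-07). All 3 libraries of Yijin-tang at 500 µg/mL, between 301 and 329 CPM, were above vehicle too. Its paralog RPL22L1 was at 11.6 ± 1.88 CPM in vehicle (SD, n = 3) and rose by 0.47 ± 0.11 on the log2 scale with Soshiho-tang and by 0.42 ± 0.11 with Yijin-tang, so both forms were higher.

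Further members that rose with Soshiho-tang at 500 µg/mL were RPL36AL (log2 fold change 0.55), RPS23, which lies in the decoding centre (0.54), RPL35A (0.49), RPL27 (0.45), RPS18 (0.43) and RPL11 (0.42), which is known as a binding partner of MDM2. With Yijin-tang at 500 µg/mL these 6 genes had values of 0.27 to 0.46, all called, and RPL36A (0.41) and RPL38 (0.39) were among the 10 highest as well. RPS6, the small subunit protein phosphorylated by S6 kinases, rose from 817 ± 41.5 to 1005 ± 40 CPM with Soshiho-tang and to 958 ± 51.6 CPM with Yijin-tang (SD, n = 3 each). RPSA, the laminin receptor protein of the small subunit, rose with Soshiho-tang (0.17 ± 0.06) and did not pass the test with Yijin-tang (0.13 ± 0.06, edgeR adjusted p = 0.119).

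The members that fell included parts of the ribosomal stalk, which recruits translation factors. RPLP1, an acidic stalk protein, was at 406, 370 and 340 CPM in vehicle, at 290, 292 and 304 CPM with Soshiho-tang at 500 µg/mL and at 301, 263 and 210 CPM with Yijin-tang. It fell by 0.33 ± 0.11 and 0.53 ± 0.11 on the log2 scale (edgeR adjusted p = 0.0189 and 0.00111). Its partner RPLP2 rose with Soshiho-tang (0.26 ± 0.09, edgeR adjusted p = 0.0237), and their anchor RPLP0 had a log2 fold change of -0.11 ± 0.07 (edgeR adjusted p = 0.218).
RPS29, a zinc-binding small subunit protein, was at 56.6, 50.7 and 41.7 CPM in vehicle. It was at 35.2, 39.9 and 44.9 CPM with Soshiho-tang at 500 µg/mL, which overlapped with vehicle, and at 39.3, 33.3 and 29.3 CPM with Yijin-tang, which did not.
RPS12, a small subunit protein, was at 352, 309 and 294 CPM in vehicle and at 271, 220 and 178 CPM with Yijin-tang at 500 µg/mL (-0.51 ± 0.14, edgeR adjusted p = 0.00643). RPL7A, a large subunit protein, fell with Soshiho-tang (-0.34 ± 0.09) and Yijin-tang (-0.37 ± 0.09), a call that was lost for Soshiho-tang when library totals were used without scaling (edgeR adjusted p = 0.0825). RPL18 fell in both comparisons as well. With Yijin-tang at 500 µg/mL RPS15 (-0.35 ± 0.11), RPS27A, a fusion with ubiquitin (-0.35 ± 0.12), RPL41 (-0.31 ± 0.11), RPL26L1 (-0.24 ± 0.08), RPS7 (-0.22 ± 0.08) and RPLP0 (-0.19 ± 0.07) were also lower.

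Among the genes that have a paralog, RPL3, RPL7, RPL10, RPL26 and RPL39 had log2 fold changes between -0.13 and 0.19 in both comparisons at 500 µg/mL, and none passed the test. RPL7L1, which takes part in large subunit assembly, was at 246 ± 1.04 CPM in vehicle and 239 ± 14.8 CPM with Soshiho-tang. RPL39L was at 8.9 ± 1.31 CPM in vehicle and 10.7 ± 0.86 CPM with Soshiho-tang (0.27 ± 0.12, edgeR adjusted p = 0.0609). RPS27L, the p53-inducible paralog of RPS27, rose with Soshiho-tang (0.42 ± 0.08, edgeR adjusted p = 0.000305). RPS4X had log2 fold changes of -0.06 ± 0.07 and -0.01 ± 0.07 with Soshiho-tang and Yijin-tang.

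Members also differed from vehicle at the lower concentrations. At 20 µg/mL, Soshiho-tang gave 12 members higher and 6 lower, where 21.8% of all genes were called (11.3% higher, 10.5% lower). Yijin-tang at 20 µg/mL gave 25 higher and 4 lower, beside 19.8% of all genes (10.6% higher, 9.2% lower). At 100 µg/mL the counts were 18 and 6 with Soshiho-tang, beside 21% of all genes (10.8% higher, 10.2% lower), and 34 and 4 with Yijin-tang, beside 25.6% (13.1% higher, 12.5% lower). Library totals gave 26 and 4 at 100 µg/mL and 18 and 4 at 20 µg/mL of Soshiho-tang, and offsets for transcript length gave 29 and 11 at 100 µg/mL and 25 and 8 at 20 µg/mL of Yijin-tang. For these other settings too, shares of all genes are not given here. RPL37 had log2 fold changes of 0.57, 0.63 and 0.70 at 20, 100 and 500 µg/mL of Soshiho-tang and of 0.67, 0.71 and 0.58 with Yijin-tang. RPS27 had 0.48, 0.60 and 0.71 with Soshiho-tang and 0.68, 0.75 and 0.55 with Yijin-tang. RPS29 had -0.69, -0.72 and -0.32 with Soshiho-tang and -0.53, -0.52 and -0.54 with Yijin-tang. Each of these 18 values passed the test. RPLP1 had -0.54, -0.56 and -0.33 with Soshiho-tang and -0.44, -0.42 and -0.53 with Yijin-tang, in the same order of concentrations, and RPL23A had -0.43, -0.40 and -0.40 and -0.32, -0.24 and -0.40, all of them called. RPS12 had -0.47, -0.50 and -0.32 with Soshiho-tang, the last of which did not pass (edgeR adjusted p = 0.064), and -0.41, -0.47 and -0.51 with Yijin-tang. Vehicle replicate 3 had the lowest levels of the vehicle libraries for both subunits. Without it the counts of called members were 21 for Soshiho-tang at 500, 25 for Yijin-tang at 100 and 19 for Yijin-tang at 20 µg/mL, and the second of these was 23 without Yijin-tang replicate 1 at 100 µg/mL.

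**Figure D2:**
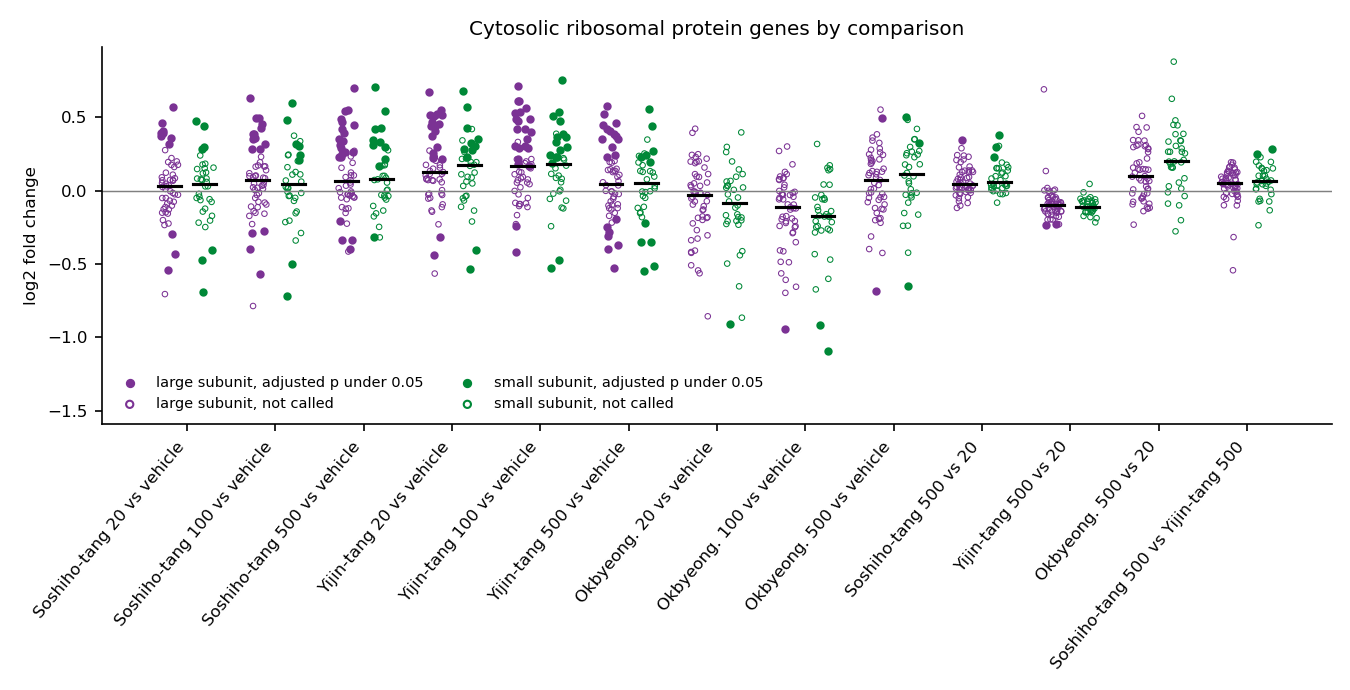
Log2 fold change (y axis) of each tested member in 13 comparisons (x axis, concentrations in µg/mL), large subunit genes in purple and small subunit genes in green. Filled points have an adjusted p under 0.05 and black bars are medians; against vehicle, filled points lie above and below 0 at every concentration of Soshiho-tang and Yijin-tang, while comparisons within an extract have few or none.

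RPL23A, RPS12 and RPLP1 were lower in all 27 libraries with extract than in all 3 vehicle libraries, and 0 members were higher in all of them. The same held for 4.52% of the 16872 genes tested on the lower side and 4.49% on the higher side. RPL23A (chr17:28719393-28724359, plus strand, GRCh38), which sits at the exit of the peptide tunnel, ranged from 366 to 397 CPM in vehicle and from 192 to 352 CPM with extract. Its named pseudogenes, summed, ranged from 87.2 to 91.2 CPM in vehicle and from 80.5 to 198 CPM with extract. The pseudogene sum was above vehicle in all libraries of Soshiho-tang, Yijin-tang and Soyo-san. With Okbyeongpung-san it was at 80.5, 89.7 and 89.7 CPM in batch E and at 182, 172 and 191 CPM in batch D at 20, 100 and 500 µg/mL, so that the library of batch E lay near vehicle, and the most abundant pseudogene was RPL23AP42. When pseudogene counts were added to the parent gene, the log2 fold change of RPL23A at 500 µg/mL went from -0.40 to -0.01 ± 0.07 with Soshiho-tang (edgeR adjusted p = 0.937), from -0.40 to -0.12 ± 0.07 with Yijin-tang (edgeR adjusted p = 0.225) and from -0.68 to -0.32 ± 0.23 with Okbyeongpung-san (edgeR adjusted p = 0.352). With Okbyeongpung-san at 20, 100 and 500 µg/mL the parent gene was at 237, 201 and 192 CPM in batch E. In batch D it was at 279, 276 and 278 CPM. The sum of parent and pseudogenes was below every vehicle library in each batch E library and near vehicle in batch D. RPL23A thus fell in the counts assigned to the parent gene, while the sum over both batches or all replicates did not pass the test in these 3 comparisons. For the other members tested in these 3 comparisons, adding pseudogenes moved the log2 fold change by at most 0.0436. Over all libraries pseudogene counts came to 51% of the parent's counts for RPL23A, 34% for RPL9, 14.6% for RPS2 and 12.2% for RPL22. Values that were not whole numbers, which can arise where RSEM divides a read between genes, made up 60.2% to 63.6% of the members' values in vehicle libraries and 47.7% to 58.0% in the others. The part of this difference in the contrasts with vehicle was not tested.

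**Figure D3:**
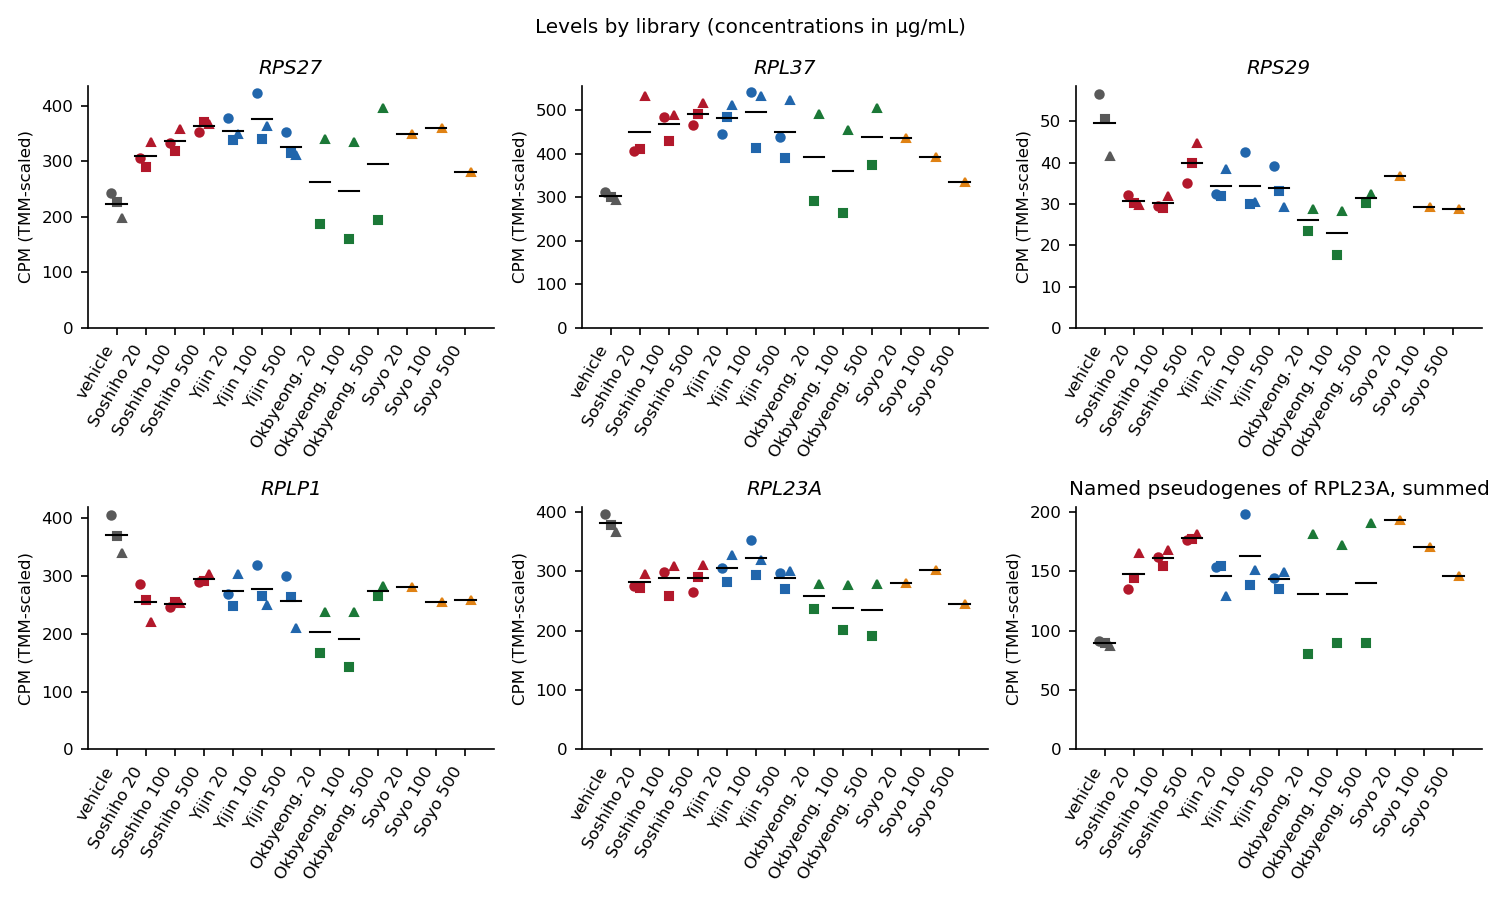
TMM-scaled CPM (y axis, starting at 0) in every library for RPS27, RPL37, RPS29, RPLP1 and RPL23A and for the summed named pseudogenes of RPL23A, by group with concentrations in µg/mL (x axis). Symbols are libraries by replicate number and bars are group means; the 3 vehicle libraries are below the Soshiho-tang and Yijin-tang libraries for RPL37 and above them for RPLP1, and with those 2 extracts RPL23A is below and its pseudogene sum above vehicle.

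Within one extract, where all libraries of Soshiho-tang and Yijin-tang come from one set, members differed little between concentrations. Soshiho-tang at 500 against 20 µg/mL called 4 of 86 members, all higher, while 28.9% of all genes were called (14.6% higher, 14.2% lower). They were RPS29 (log2 fold change 0.38 ± 0.13), RPL39L (0.35 ± 0.11), RPS27L (0.30 ± 0.08, edgeR adjusted p = 0.00786) and RPS27 (0.23 ± 0.08). The median over members was 0.05, beside 0.01 over all genes. RPS29 was at 32.1, 30.4 and 29.7 CPM at 20 µg/mL and at 35.2, 39.9 and 44.9 CPM at 500 µg/mL, higher in each library but still below the vehicle mean of 49.7 CPM. The call of RPS29 was lost without any single one of 5 of the 6 libraries, replicate 1 at 500 µg/mL being the exception, with edgeR adjusted p from 0.0508 to 0.155. RPS27 lost its call without replicates 1 or 2 at 20 µg/mL or replicates 2 or 3 at 500 µg/mL, and RPL39L without replicate 1 at 500 or replicate 3 at 20 µg/mL. RPS27L kept its call in each of these 6 fits. Yijin-tang at 500 against 20 µg/mL called 2 members, both lower, with 5.64% of all genes called (2.7% higher, 2.94% lower). RPL13A, a large subunit protein, was at 952, 882 and 990 CPM at 20 µg/mL and at 816, 815 and 786 CPM at 500 µg/mL (-0.23 ± 0.05, edgeR adjusted p = 0.0138). RPL3, also a large subunit protein, was at 552, 542 and 596 CPM and at 498, 505 and 438 CPM (-0.23 ± 0.07, edgeR adjusted p = 0.0445). RPL13A lost its call without replicate 1 or 3 at 20 µg/mL, and RPL3 without any 1 of the 6 libraries. The median over members was -0.11, beside 0.0007 over all genes, and 78 of 86 were below 0. Members deviate together from library to library, so the 78 are not separate observations.

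Between 100 and 20 µg/mL edgeR called 0 members with either extract, beside 0.0711% of all genes with Soshiho-tang (0.00593% higher, 0.0652% lower) and 0.00593% with Yijin-tang (0% higher, 0.00593% lower). At an unadjusted p under 0.05 there were 2 and 0 members, and DESeq2 gave 0 called members for both.

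Soshiho-tang was next set against Yijin-tang at each concentration, within their common library set. At 500 µg/mL 2 members were called, both higher with Soshiho-tang, and 25.2% of all genes were called (12.5% higher, 12.8% lower). They were RPS27L, the paralog of RPS27, and RPS19BP1, which is not a ribosome component. The count was 5 without replicate 1 of Yijin-tang, 0 without its replicate 3, and 1 without any other single library. RPS27L was at 76.8, 79.5 and 85.1 CPM with Soshiho-tang and at 70.7, 65.9 and 61.5 CPM with Yijin-tang, without overlap (0.28 ± 0.08, edgeR adjusted p = 0.0126). Without replicate 3 of Soshiho-tang or of Yijin-tang the adjusted p was 0.0681 and 0.0662. RPS19BP1 was at 47.3, 45.8 and 43.9 CPM with Soshiho-tang and at 40.9, 37.7 and 36.6 CPM with Yijin-tang (0.25 ± 0.09, edgeR adjusted p = 0.0367), and lost its call without Soshiho-tang replicate 1 or 2 or Yijin-tang replicate 2 or 3. At 100 and 20 µg/mL edgeR called 0 members, beside 0.753% (0.273% higher, 0.48% lower) and 0.13% (0.0237% higher, 0.107% lower) of all genes, with 4 and 10 members at an unadjusted p under 0.05 and 0 by DESeq2 in both.

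The change from 20 to 500 µg/mL itself differed between the extracts for 2 members, with 13.6% of all genes called in this test of the difference (6.63% higher, 6.99% lower). RPS27L changed by 0.30 ± 0.08 with Soshiho-tang and by -0.15 ± 0.08 with Yijin-tang, a difference of 0.45 ± 0.12 (edgeR adjusted p = 0.0108) that passed without any single library. RPS27 changed by 0.23 ± 0.08 and -0.12 ± 0.08, a difference of 0.36 ± 0.11 (edgeR adjusted p = 0.0382), and passed in 3 of 12 fits that each left out 1 library. Without replicate 3 of Soshiho-tang at 20 µg/mL, 5 members passed. The median difference over the 86 members tested was 0.18, with 83 above 0, beside a median of 0.002 over all genes. At 20 µg/mL, 84 of the 86 members were below 0 for Soshiho-tang against Yijin-tang (median -0.12), which enters this difference. Members deviate together from library to library, so the 83 are not separate observations.

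**Figure D4:**
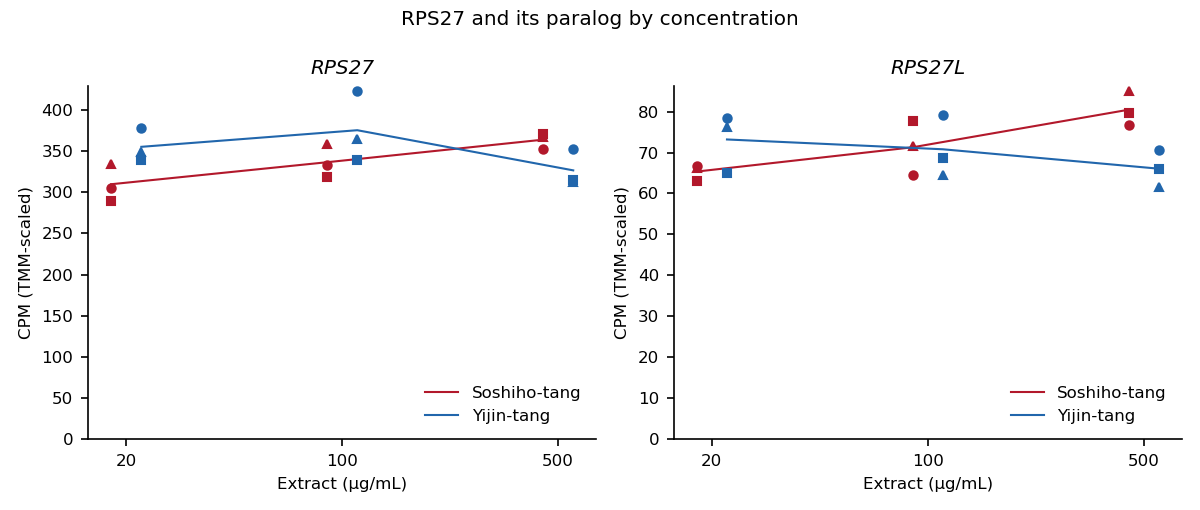
TMM-scaled CPM (y axis, starting at 0) of RPS27 (left) and its paralog RPS27L (right) at 20, 100 and 500 µg/mL (x axis) of Soshiho-tang in red and Yijin-tang in blue. Symbols are single libraries and lines join group means; the RPS27L libraries of both extracts overlap at 20 µg/mL and are separate at 500 µg/mL.

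Okbyeongpung-san libraries differed by batch. The library of batch E was below that of batch D in 84, 83 and 75 of 86 members at 20, 100 and 500 µg/mL, with median log2 differences of -0.43, -0.47 and -0.28, beside -0.006, -0.003 and -0.003 over all genes. RPS27 was at 187 CPM in batch E and 339 CPM in batch D at 20 µg/mL, and at 194 and 396 CPM at 500 µg/mL. Without a batch term, 500 µg/mL against vehicle gave 3 members higher (RPS23, RPL22, RPS6) and 2 lower (RPS29, RPL23A), with 24.7% of all genes called (13.3% higher, 11.4% lower). Without any 1 of the 5 libraries this count was 1 to 3. RPS29 at 500 µg/mL was at 30.2 CPM in batch E and 32.6 CPM in batch D. With batch as a term, which sets vehicle against batch E, the counts were 3 higher and 30 lower, beside 17.4% and 16.1% of all genes. The batch difference in that fit rests on the Okbyeongpung-san libraries alone, with 1 library per batch and concentration. RPS23, RPL22 and RPS6 were the 3 higher members there too. The largest falls were those of RPL23A (-0.91 ± 0.08), RPS29 (-0.83 ± 0.15), RPS15 (-0.80 ± 0.10) and RPL29 (-0.76 ± 0.13). At 100 µg/mL 3 members were lower (RPS29, RPLP1 and RPS12), beside 3.66% of all genes (2.04% higher, 1.62% lower). The batch term gave 52 members called in either direction there, beside 11% of all genes in each direction. At 20 µg/mL RPS29 alone was lower, beside 2.24% of all genes (1.18% higher, 1.06% lower). There the batch term gave 41 members in either direction, beside 9.01% of all genes higher and 8.96% lower. With the replicate number as a block, which same-numbered vehicle and Okbyeongpung-san libraries share, the counts at 100 and 20 µg/mL were 0 and 0. RPS29 lost its call at 20 µg/mL without any single library of the 2 groups.

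Against the vehicle mean, the medians of the members at 20, 100 and 500 µg/mL were -0.31, -0.40 and -0.12 in the batch E library and 0.11, 0.04 and 0.19 in the batch D library, so the batches did not share a direction. Within each batch, 500 µg/mL was above 20 µg/mL in more members: 61 of 86 in batch E (median 0.19) and 66 of 86 in batch D (median 0.12), with 1 library per concentration and no test within a batch. Over both batches without a batch term, edgeR called 0 members between 500 and 20 µg/mL, beside 10.3% of all genes (5.21% higher, 5.1% lower), 9 had an unadjusted p under 0.05, and DESeq2 called 1. With the batch term 22 members rose and 1 fell, beside 9.84% and 9.69% of all genes. RPS27A (0.92 ± 0.23), RPS12 (0.66 ± 0.14), RPL9 (0.54 ± 0.12), RPS21 (0.50 ± 0.13), RPS14 (0.48 ± 0.11) and RPL37A (0.47 ± 0.13) were the highest and RPL11 (-0.25 ± 0.07) fell. RPS12 was at 141 and 204 CPM at 20 µg/mL and at 268 and 267 CPM at 500 µg/mL in batches E and D. Between 100 and 20 µg/mL edgeR called 0 members and 0% of all genes, with 0 members at an unadjusted p under 0.05 and 0 by DESeq2.

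Soyo-san, with single libraries, was set against the vehicle mean as log2 ratios of CPM + 1, without a test. The medians over members were 0.0004, 0.087 and 0.12 at 500, 100 and 20 µg/mL, and 3, 4 and 3 of 86 members were at least 0.5 in size, beside 4.54%, 2.65% and 2.77% of all genes. RPS27 had ratios of 0.33, 0.70 and 0.65 and RPS28, a small subunit protein, of 0.44, 0.75 and 0.46. RPS29 had ratios of -0.77, -0.74 and -0.42, and RPL23A of -0.63, -0.33 and -0.44.

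Libraries of one group differed more in the members than in other genes. The median SD of log2 levels within groups was 0.18 over 84 members at 10 CPM or more, against 0.088 over 9813 genes at that level. The most variable were RPS21 (0.32), RPS25 (0.32) and RPS27 (0.31), and the least variable RPL4 (0.057), RPL13A (0.073) and RPS6 (0.08). All these SDs include Okbyeongpung-san, whose 2 libraries per group come from different batches, so a batch difference enters them. On the CPM scale, SDs with Okbyeongpung-san were 26.8 to 35.9 for RPS21, 81.2 to 106.9 for RPS25 and 107.5 to 143.4 for RPS27. In the other replicated groups they were 6.6 to 26.4, 2.3 to 58.9 and 9.4 to 42.6. The ranking without Okbyeongpung-san was not tested. Members deviated together: the median correlation between 2 members' deviations from their group means over 27 libraries was 0.73, against -0.002 between any 2 of the 9813 genes. These deviations share the library, its depth and its scaling, with Okbyeongpung-san also the batch, and the values are a description. Most like the mean of the others were RPS15A (0.97), RPS7 (0.97) and RPL36 (0.97), and least like it RPL7L1 (0.07), RPL4 (0.12), RPL7 (0.34) and RPL28 (0.34).

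Other short genes deviated in parallel. The median deviation of the members in each library had a correlation of 0.989 (Spearman 0.986) with that of 577 other protein-coding genes with transcripts of at most 1000 bases, and of 0.982 (Spearman 0.979) with that of 76 mitochondrial ribosomal protein genes. The deviations of the 2 Okbyeongpung-san libraries of a group mirror each other. Over the 21 libraries without them both were 0.968, and without the 2 libraries farthest from the median they were 0.985 and 0.976. The 21 other TOP mRNAs, which code for translation factors and related proteins, had 0.603 (Spearman 0.512), 0.803 (Spearman 0.569) without Okbyeongpung-san and 0.517 (Spearman 0.413) without the 2 farthest libraries. The SD of the deviations was 0.14 for members, 0.099 for the short genes, 0.084 for mitochondrial ribosomal protein genes, 0.043 for other TOP mRNAs and 0.007 for 8894 genes with longer transcripts. Members with longer transcripts (24 genes) had an SD of 0.12 and those up to 1000 bases (60 genes) of 0.15. With offsets that remove each library's trend with transcript length, a setting chosen after the data had been seen, the median fold change of members against vehicle at 500 µg/mL was 0.04 with Soshiho-tang and 0.002 with Yijin-tang, and 31 of the 32 and 30 of the 31 called members kept their call and direction.

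**Figure D5:**
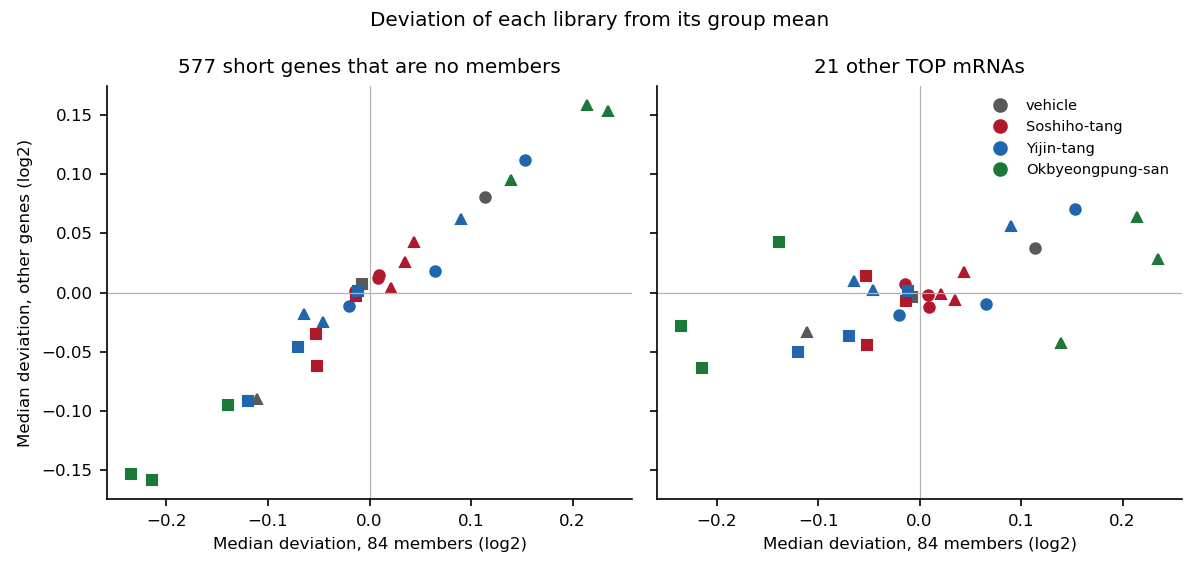
Median deviation of a library from its group mean (log2), for 84 members (x axis) and for other genes (y axis): 577 short genes that are no members (left) and 21 other TOP mRNAs (right). Each symbol is 1 of 27 libraries, coloured by extract and shaped by replicate number; the left panel follows a line with a correlation of 0.989, and the right panel scatters more widely.

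Other genes of ribosome production were counted from lists of known components. RACK1, a small subunit scaffold that the symbol rule leaves out, had log2 fold changes at 500 µg/mL against vehicle of -0.05 ± 0.05 with Soshiho-tang and -0.13 ± 0.05 with Yijin-tang, and fell in the latter (edgeR adjusted p = 0.0455). FAU, also outside the rule, had -0.04 ± 0.08 and -0.11 ± 0.08. Of 40 ribosome assembly factors, 24 rose and 0 fell with Soshiho-tang at 500 µg/mL against vehicle, while 12 rose and 5 fell with Yijin-tang. Of all genes, 22.8% were higher and 21.1% lower with Soshiho-tang, and 16% and 15.2% with Yijin-tang. GAR1, a protein of the RNPs that guide pseudouridylation, had the highest fold change in both (1.02 ± 0.10, from 11.8 ± 0.83 to 24 ± 2.72 CPM, and 0.78 ± 0.10, to 20.3 ± 2.04 CPM). Against 20 µg/mL of Soshiho-tang 12 assembly factors rose and 1 fell, led by the U3 snoRNP protein RRP9 (0.37 ± 0.05), and against Yijin-tang at 500 µg/mL 14 were higher and 0 lower, led by RRP12 (0.39 ± 0.04). Of all genes, 14.6% were higher and 14.2% lower in the first of these comparisons, and 12.5% and 12.8% in the second. The cytosolic members called in these last 2 comparisons numbered 4 and 2.

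Of 78 mitochondrial ribosomal protein genes, 43 rose and 0 fell with Soshiho-tang at 500 µg/mL against vehicle (median 0.22). Of all genes, 22.8% were higher and 21.1% lower. With Yijin-tang 39 rose and 1 fell (median 0.21), beside 16% of all genes higher and 15.2% lower. Within groups, the median deviation of these genes followed that of the members (correlation 0.982). The part of such library differences in these counts was not tested. Against 20 µg/mL of Soshiho-tang 22 rose and 0 fell, beside 14.6% of all genes higher and 14.2% lower, among them MRPL34 (0.46 ± 0.09) and MRPS30 (0.40 ± 0.05). Of 21 other TOP mRNAs, 3 rose and 3 fell with Soshiho-tang at 500 µg/mL against vehicle, where 22.8% of all genes were higher and 21.1% lower. PABPC1, the poly(A)-binding protein, had a log2 fold change of -0.35 ± 0.08. In the same comparison, of the 12 snoRNA host genes tested, 5 rose and 0 fell, SNHG6 by 0.66 ± 0.13. There, of 14 genes of RNA polymerase I, which transcribes ribosomal RNA, 5 rose and 2 fell, among them TAF1D (0.46 ± 0.06) and UBTF (-0.37 ± 0.06). Of 18 tested regulators of ribosomal protein synthesis 5 rose and 5 fell with Soshiho-tang against vehicle, and 5 rose and 0 fell against 20 µg/mL (14.6% and 14.2% of all genes). The latter included SESN2, an inhibitor of mTORC1, from 22.8 ± 1.53 to 78.5 ± 1.71 CPM (1.78 ± 0.05), EIF4EBP1, a repressor of cap-dependent translation and an mTORC1 substrate (0.53 ± 0.09), MYC (0.39 ± 0.08) and LARP1, which binds TOP mRNAs (0.23 ± 0.05). Against Yijin-tang at 500 µg/mL LARP1 was also higher (0.35 ± 0.05).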

How the data were processed

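Directional RNA libraries of 30 samples were sequenced as paired ends of 100 bases, per the labels' protocols. The authors deposited expected counts (estimated counts per gene) made with RSEM 1.3.3 after STAR 2.7.3a, Trim Galore 0.6.5 and FastQC 0.11.9 on hg38/GRCh38, per the submitters' processing notes. For annotation release and strand setting, nothing is given in the sources used here. Whether reads of overlapping and antisense genes were separated by strand is therefore unknown. Of 60675 entries, 57055 matched GENCODE v29.

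Estimated counts were rounded and tested with edgeR 4.0.16 (R 4.3.3, limma 3.58.1): TMM scaling, filterByExpr (minimum count 10, minimum total 15), quasi-likelihood test, Benjamini-Hochberg adjustment over all genes, called at 0.05. One fit held vehicle, Soshiho-tang and Yijin-tang (21 libraries) and another vehicle and Okbyeongpung-san (9 libraries). Levels are CPM scaled by TMM over all libraries, ± SD, and SE is the log2 fold change divided by the square root of F. Alternatives were DESeq2 1.42.0, other scalings, no filter, length offsets, pseudogene counts (1144 named pseudogenes of 77 members) added to parents, a replicate block and each library left out. The test was tried on simulated data.

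Replicate numbers of Okbyeongpung-san stand for batches in the titles: between its groups, same-numbered libraries deviated together (correlations 0.135 to 0.457, 3 group pairs of 2 libraries), so batch values are given beside its results. Among 24 pairs of libraries of a group, chi-square per degree of freedom was 3.21 to 39.47, so none looked like one library deposited again. The table's 30 blank columns hold nothing.

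The members and lists were chosen with earlier results of these data known. Named were up to 10 called members a side at 500 µg/mL against vehicle, against 20 and between extracts, up to 4 elsewhere (at 1 CPM or more), the 3 most and least abundant per kb, RPLP0, RPLP1, RPLP2, RPSA, RPS6, the paralog pairs, and up to 4 called genes per list. Some called members and list genes that the rule takes are given by counts alone. Others were named for spread, likeness, batch or pseudogenes after their values were seen. One gene outside the rule is not reported here.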

Additional observations from a re-analysis of the deposited data

Results flagged for a closer look

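The change from 20 to 500 µg/mL differed between Soshiho-tang and Yijin-tang for 2 of 86 members in a test of the difference itself. Of all genes, 13.6% were called in this test (6.63% higher, 6.99% lower), so the share of members was below that of all genes. RPS27L rose by 0.30 ± 0.08 with Soshiho-tang, beside -0.15 ± 0.08 with Yijin-tang, a difference of 0.45 ± 0.12 on the log2 scale (edgeR adjusted p = 0.0108). RPS27 had values of 0.23 ± 0.08 and -0.12 ± 0.08, a difference of 0.36 ± 0.11 (edgeR adjusted p = 0.0382). RPS27 lost its call in most fits that left out a single library, while RPS27L kept its call in all of them.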

How the results depend on the processing

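Each value here is the number of members called, unless stated. Shares of all genes under each setting are not given beside these counts. A move in a count therefore cannot be told apart here from a move over all genes. TMM factors without the members changed no count by over 1.5 times, and none of the called gene values followed across settings (at 500 µg/mL against vehicle, within and between extracts) changed sign. The correction by transcript length was chosen after the data had been seen. Where a count moved, the cause was not tested, save that fits of fewer libraries have less information. Without a filter the counts were 41 and 36 for Soshiho-tang at 100 and 20 µg/mL against vehicle, 47 for Yijin-tang at 20, and 27, 22 and 20 for Okbyeongpung-san at 500, 100 and 20. They were 13, 6 and 24 at 500 against 20 µg/mL of Soshiho-tang, Yijin-tang and Okbyeongpung-san, 12, 3 and 5 between extracts at 500, 100 and 20, and 18 for the difference between changes. For Okbyeongpung-san at 500, 100 and 20 against vehicle and at 500 against 20, a fit of 27 libraries gave 8, 9, 8 and 4, the batch term 33, 52, 41 and 23, and length correction by transcript 13, 8, 7 and 6. Exonic length correction gave 6, 5 and 2 for the last 3 of these, and 4 between extracts at 500. Correction by transcript gave 28 for Soshiho-tang at 20 against vehicle, 5 for Yijin-tang at 500 against 20, and 4 between extracts at 500. DESeq2 gave 6, 5 and 1 for Okbyeongpung-san at 100 and 20 against vehicle and 500 against 20, and 4 for the difference between changes. DESeq2 size factors gave 2 for Okbyeongpung-san at 20 against vehicle, and library totals gave 2 there, 1 at 500 against 20, 7 for Soshiho-tang at 500 against 20 and 0 for Yijin-tang. Fits of only the groups compared gave 12, 7 and 6 for Okbyeongpung-san at 500, 100 and 20 against vehicle, 12 and 1 for Soshiho-tang and Yijin-tang at 500 against 20, and 5 for the difference between changes. Adding pseudogenes gave 3 for Okbyeongpung-san at 500 against vehicle.

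In the fit with vehicle, Soshiho-tang and Yijin-tang, same-numbered libraries of different groups had correlations of -0.229 to 0.428 (median -0.012). Differently numbered ones had -0.346 to 0.279 (median -0.006), so these correlations showed no clear pairing. The members' median deviation was nevertheless below 0 in replicate 2 of each Soshiho-tang and Yijin-tang group (-0.12 to -0.011). A pairing by number can therefore not be left out for the members. The replicate block gave 0 for Okbyeongpung-san at 100 and at 20 against vehicle, 1 at 500 against 20, 1 for Yijin-tang at 500 against 20 and 4 for the difference between changes. For Soshiho-tang and Yijin-tang at 500 against vehicle it gave 33 and 33. The replicate block with exonic length correction gave 8, 5 and 2 for Okbyeongpung-san at 500, 100 and 20 against vehicle, 4 at 500 against 20, 4 for Yijin-tang at 500 against 20 and 4 between extracts at 500. Other counts stayed within 1.5 times under the block.

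With 1 library left out, counts against vehicle at 500, 100 and 20 µg/mL ran from 21 to 33, 18 to 25 and 14 to 21 for Soshiho-tang, from 23 to 29, 23 to 39 and 19 to 33 for Yijin-tang, and from 1 to 3, 0 to 2 and 0 to 0 for Okbyeongpung-san. They ran from 2 to 5, 0 to 2 and 0 to 2 at 500 against 20 of Soshiho-tang, Yijin-tang and Okbyeongpung-san, from 0 to 0 at 100 against 20 of each, from 0 to 5, 0 to 0 and 0 to 2 between extracts at 500, 100 and 20, and from 1 to 5 for the difference between changes. A single remaining Okbyeongpung-san library is assumed to vary like the other groups.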
